A study of Mus musculus with 14 samples.

Results

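The wild-type cells of 2 epidermal compartments were compared: cells of the hair follicle bulge and cells of the interfollicular epidermis (IFE). The comparison used 6 of the 14 arrays of the study, chosen by their labels as the 3 arrays of bulge cells and the 3 arrays of IFE cells from G9a WT mice. All mice were 15 weeks old and their skin was described as homeostatic. The mice were wild type for G9a, which methylates lysine 9 of histone H3 and is the product of Ehmt2, and the other 8 arrays came from G9a cKO mice (4 bulge and 4 IFE arrays). RNA was extracted from the cells, amplified as cDNA and hybridised to the arrays. Each value is a log2 signal of a probe set made with the RMA method. The way the cells were separated, the strain, the sex and whether replicates were separate animals were not given in the labels used here. The p-values therefore measure the spread within the groups of all 14 arrays, which may be technical.

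The bulge is the part of the outer root sheath below the sebaceous gland where the stem cells of the hair follicle reside. These cells are mostly quiescent and divide when a new hair cycle starts, under the opposing influence of Wnt signals, which promote growth, and BMP signals, which hold the cells at rest. The IFE is renewed from its own basal layer, whose cells divide throughout life and give rise to suprabasal layers that build desmosomes, a cornified envelope and a lipid barrier.

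A log2 difference is given throughout as bulge WT minus IFE WT, so that a positive value means a higher signal in bulge cells and 1 unit is a 2-fold difference in signal. A gene was called when its adjusted p in the limma fit of all 14 arrays was under 0.05. The spread of a gene was pooled over all groups, so standard errors and p-values also carry the spread of the cKO arrays. The file holds no detection calls. As a yardstick of signals that need no transcript, the 95th percentile of 76 olfactory and vomeronasal receptor genes was taken on each array, and this reference level lay between 6.06 and 6.31 on the 6 WT arrays. A signal below it is described as dim, and a difference from a dim group is not read as a fold of transcript. Of these receptor genes, 2 were called between the compartments.

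Arrays of bulge WT correlated with each other at 0.993 to 0.995 over all probe sets, and arrays of IFE WT at 0.988 to 0.996. Correlations between a bulge and an IFE array lay between 0.932 and 0.955. Among markers of other cells of the skin, those dim in both compartments were 8 of 10 for T cells, 8 of 10 for melanocytes, 9 of 12 for fibroblasts, 7 of 9 for endothelial cells, 6 of 7 for Merkel cells, 7 of 9 for muscle, 6 of 12 for Langerhans cells, 4 of 9 for the hair shaft and inner root sheath and 2 of 8 for sebocytes. Of the 9 hair shaft and inner root sheath markers, 3 were called higher in bulge cells (1 without bulge WT replicate 1) and 3 lower, among them Gata3, which was at least 2-fold lower and also acts in the IFE. Markers of the remaining cell types that were called and at least 2-fold apart included Thy1, a surface glycoprotein of T cells and fibroblasts (log2 difference -3.41), and Mfge8, a milk fat globule protein also made by Langerhans cells (log2 difference 2.15). Of the 12 Langerhans cell markers, 1 was called higher in bulge cells, 2 were called lower and 9 were not called, with a median log2 difference of -0.12. Among 8 measured sebocyte markers Mgst1 and Plin2 were called higher in bulge cells (log2 differences 1.26 and 0.90) and Fasn lower (-0.59). The other probe set of Mgst1 differed by -0.02, and its call was lost without bulge WT replicate 1 or 2 or without IFE WT replicate 2 or 3. The part of other cell types in the differences below was not tested. In bulk samples such as these, fewer cells of a type and less RNA per cell cannot be told apart.

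The labelled compartments carried their markers. Cd34, a sialomucin on the surface of bulge cells, read 11.43, 10.93 and 10.99 on the 3 bulge arrays and 5.07, 5.0 and 5.12 on the 3 IFE arrays. Lgr5, a receptor for R-spondins on follicle stem cells, read 10.73, 10.16 and 10.37 in bulge and 4.92, 4.51 and 4.52 in IFE. Lhx2, a LIM homeobox factor that maintains follicle stem cells, read 9.77, 9.71 and 9.66 in bulge and 4.45, 4.65 and 4.33 in IFE. All 3 genes were bright on every bulge array and dim on every IFE array, and the groups were far apart. Il33, an alarmin of the interleukin 1 family, read 4.72, 4.25 and 4.36 in bulge and 9.11, 8.76 and 8.34 in IFE. Epgn, a ligand of the EGF receptor, read 6.0, 5.78 and 6.28 in bulge and 10.33, 9.99 and 10.55 in IFE. Both were bright on every IFE array and dim on every bulge array. Krt1, the type II keratin of the first suprabasal cells, read 9.87, 9.47 and 9.41 in bulge and 12.37, 11.84 and 12.03 in IFE, so it was well above the reference level in both compartments. Its log2 difference was -2.50 (SE 0.50, adjusted p = 0.00212). The SDs of Krt1 were 0.25 in bulge WT and 0.27 in IFE WT. Its bulge cKO arrays, which enter the SE, read 9.36 to 11.93. The basal keratins Krt5 (log2 difference 0.09, adjusted p = 0.122) and Krt14 (-0.20, adjusted p = 0.0908) were not called. Krt5 was called at 0.17 under cyclic loess, and Krt14 at -0.20 without bulge cKO replicate 1 and at -0.21 with array weights estimated either way.

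**Figure D1:**
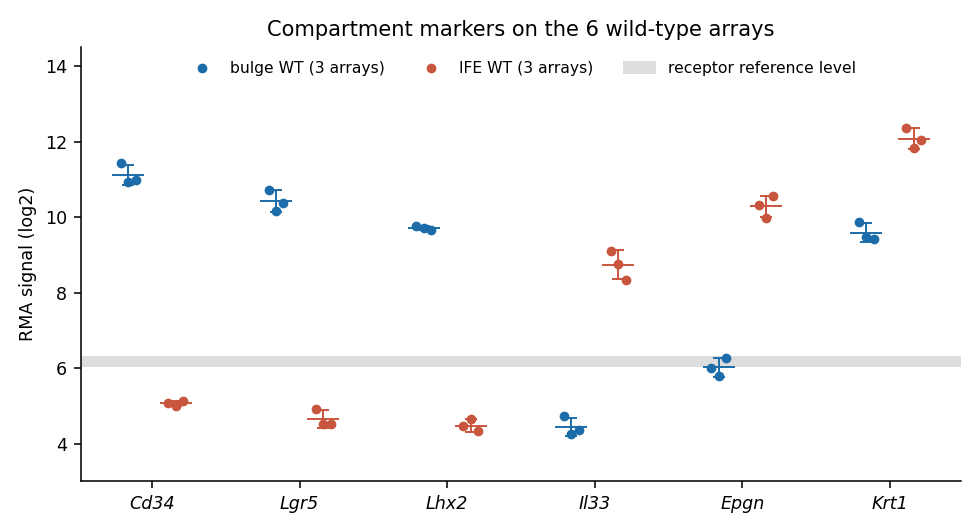
RMA signals (log2, y axis) of 6 marker genes (x axis) on the 3 bulge WT and 3 IFE WT arrays; points are arrays, horizontal bars are means, error bars are SDs and the grey band is the range of the receptor reference level over the 6 arrays. Cd34, Lgr5 and Lhx2 lie above the band on all bulge arrays and below it on all IFE arrays, while Krt1 lies above it in both groups.

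Of 17097 genes, 5998 were called (35.1%), 3152 higher in bulge cells (18.4%) and 2846 lower (16.6%). The median log2 difference over all genes was -0.01. With each array centred on its median, 2730 genes were called higher and 3695 lower, so the share of higher calls was 42.5% instead of 52.6%. Far fewer were also at least 2-fold apart: 1341 genes (7.84%), of which 664 were higher (3.88%) and 677 lower (3.96%). At least 4-fold differences in signal were found for 192 genes higher and 160 lower, at least 8-fold for 59 and 48, and at least 16-fold for 26 and 6. The largest class includes genes dim in 1 compartment, such as Cd34 and Lgr5 in IFE cells and Il33 and Epgn in bulge cells. These classes are therefore not folds of transcript. The 3 bulge arrays did not overlap the 3 IFE arrays for 8098 genes (47.4%). Counts of list members below stand against the 18.4% and 16.6% of all genes called in each direction. The lists were chosen with earlier results of these data known, so their counts are descriptions and test nothing. Of the genes at least 2-fold higher in bulge cells, 236 were dim on every IFE array, and of those at least 2-fold lower, 195 were dim on every bulge array.

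**Figure D2:**
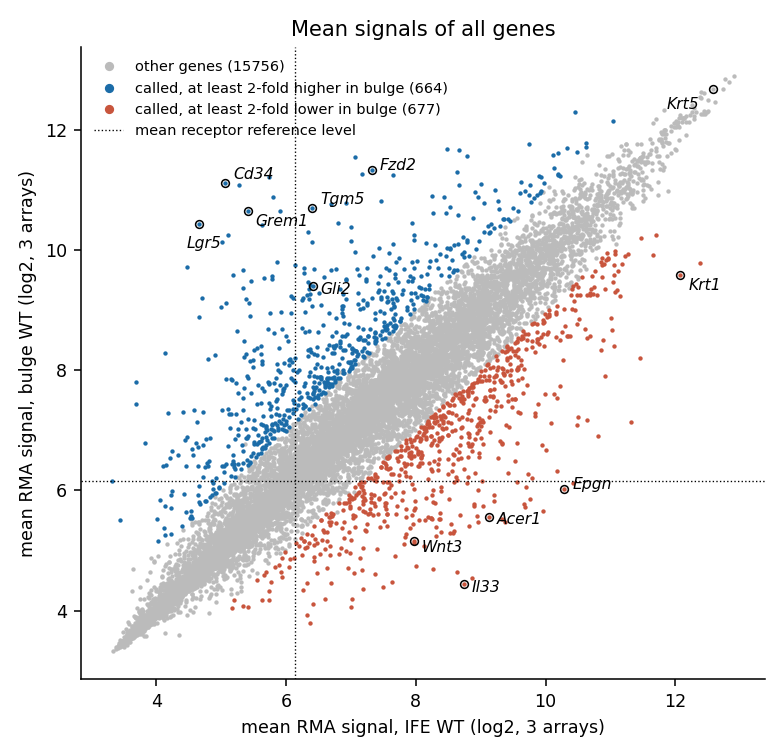
Mean RMA signal (log2) of 17097 genes on the 3 IFE WT arrays (x axis) and the 3 bulge WT arrays (y axis); blue genes were called and at least 2-fold higher in bulge, red genes called and at least 2-fold lower, grey genes neither, and dotted lines mark the mean receptor reference level of each group. Named genes are circled; Cd34, Lgr5 and Grem1 lie left of the vertical line, Il33, Wnt3, Acer1 and Epgn below the horizontal line, and Krt5 lies near the top of the diagonal.

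The genes ranked 11 to 25 by log2 difference among called genes whose groups do not overlap were taken for description on each side. Il31ra, a receptor subunit for interleukin 31, read 10.98, 10.54 and 10.40 in bulge and 5.84, 5.71 and 6.17 in IFE (log2 difference 4.73, SE 0.34). Camk4, a calcium and calmodulin dependent kinase, had a log2 difference of 4.50, the adenylyl cyclase Adcy1 of 4.04, and the potassium channel Kcnk2 of 4.15. Others on the bulge side were Timp2, an inhibitor of matrix metalloproteases (log2 difference 4.47), Ltbp2, a binding protein of the latent TGF-beta family (4.39), Egfl6 (4.11), Col6a1 (4.09), Fstl1 (4.07) and Col5a2 (4.02). Another probe set of Col5a2 differed by 0.93 on the log2 scale. The remaining genes were Pdzrn3 (log2 difference 4.33), Galnt15 (4.22, with a second probe set at 0.30), the transglutaminase Tgm5 (4.29), the calmodulin-like Calml3 (4.06) and the serpin Serpinb11 (4.04). Apart from Timp2, Col6a1, Tgm5 and Calml3, all these bulge-side genes were dim on every IFE array, so their differences are not folds of transcript.

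On the IFE side Il1r2, the decoy receptor of interleukin 1, read 5.31, 6.05 and 6.21 in bulge and 9.83, 9.65 and 9.79 in IFE (log2 difference -3.90, SE 0.33), and Il1rn, the receptor antagonist, had a log2 difference of -3.59. Adam8, a membrane metalloprotease, differed by -3.89, the kallikrein Klk11 by -3.39, and the inflammatory caspase Casp4 by -3.82 on the log2 scale. Further members were Pmaip1, which encodes the pro-apoptotic protein Noxa (log2 difference -3.65), Tcim (-3.85), Il6ra, the interleukin 6 receptor (-3.47), Tnfrsf19, a receptor of the TNF receptor family (-3.46), and Mt4, the metallothionein of stratified epithelia (-3.49). The list also held the ceramidase Acer1 (-3.57), the serpin Serpinb7 (-3.58), Cpxm2 (-3.41), Arhgdib (-3.40) and Thy1. Apart from Il1rn, Tcim, Il6ra, Tnfrsf19, Arhgdib and Thy1, all these IFE-side genes were dim on every bulge array.

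Of 22 transcription factors known from the bulge, 15 were called higher in bulge cells and 4 lower, and 14 were at least 2-fold higher; their median log2 difference was 1.33. Mitf, a basic helix-loop-helix factor known from melanocytes, read 9.03, 8.91 and 8.92 in bulge and 6.09, 6.24 and 5.89 in IFE (log2 difference 2.88, SE 0.24, adjusted p = 9.14e-06). Its groups did not overlap, and of the 10 melanocyte markers 8 were dim in both compartments and none was called higher in bulge cells. Mlana was called lower (log2 difference -0.12) and lost that call without any one of the 6 WT arrays. Tbx1 had a log2 difference of 3.34 and Foxc1, which helps to keep bulge cells quiescent, of 2.67. Sox9, required for follicle stem cells, differed by 2.40, with its other probe sets at 2.39 and 0.07, the last dim in both compartments. The TCF factors Tcf7l1 and Tcf7l2 had log2 differences of 2.09 and 1.48, Runx1 of 1.67, Nfib of 1.50 and Nfatc1 of 1.15. In the other direction Klf5 had a log2 difference of -2.38 and Sox21 of -1.18.

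Genes of the niche that are secreted or part of the matrix were higher in bulge cells for 13 of 15 measured members, all 13 at least 2-fold, with none called lower and a median log2 difference of 2.67. On average these 15 genes read 9.02 to 9.36 on the bulge arrays and 6.61 to 6.85 on the IFE arrays. Angptl7 (log2 difference 3.61), Npnt, the nephronectin that anchors the arrector pili muscle (2.50), Tnc (2.90), Fbln1 (2.67), Aspn (2.28) and Postn (2.01) were among them. A second probe set of Tnc was dim and differed by 0.15. Fgf2 and Timp3 were not called, with log2 differences of -0.01 and -0.18. Among 11 surface genes, 6 were called higher and 2 lower (1 without bulge WT replicate 2 or without IFE WT replicate 1 or 2, and 3 without IFE WT replicate 3), with the glycoprotein Cd200 at 3.74, the integrin Itgb6 at 1.49 and Itga6 at -0.87 on the log2 scale. The P-cadherin gene Cdh3 had a log2 difference of -0.01 and was not called.

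Markers of neighbouring parts of the follicle were mixed. Of 10 upper follicle genes, 3 were called higher in bulge cells and 4 lower, and the count lower was 2 without bulge WT replicate 1 and 1 without bulge WT replicate 2 or IFE WT replicate 1. Plet1, an isthmus surface marker, was lower (log2 difference -1.46), while Gli1 (1.49) and Fst (1.43) were higher. Of 7 inner bulge and companion layer genes, 4 were called higher, led by S100a4 (log2 difference 3.96) and the companion layer keratin Krt75 (2.67). Krt6b read 8.94, 6.61 and 6.12 in bulge and 11.52, 10.72 and 9.25 in IFE, and its log2 difference of -3.27 was no longer called without bulge WT replicate 2 or 3 or without IFE WT replicate 1 or 2. Krt6a, a keratin of the inner bulge and of wounds, had a log2 difference of 0.24 and was not called.

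In the Wnt pathway more ligands were called lower in bulge cells than higher, and more receptors higher than lower. Ligands and their secretion genes were called lower in bulge cells for 9 of 21 members and higher for 1, and 6 were at least 2-fold lower. Wnt3 read 5.44, 4.85 and 5.20 in bulge and 7.98, 7.85 and 8.09 in IFE (log2 difference -2.81, SE 0.34, adjusted p = 6.93e-05). Bulge arrays were all dim for Wnt3 and IFE arrays all bright. Wnt4 (-1.36), Wnt10a (-1.18), Wnt7b (-1.16), Wnt3a (-0.80) and Wnt10b (-0.56) had smaller log2 differences in the same direction, and 11 of the 21 were dim in both compartments. The member called higher was Porcn, the acyltransferase that lipidates Wnt proteins (log2 difference 0.69).

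Receptors were called higher in bulge cells for 11 of 19 members and lower for 3. Fzd2 read 11.41, 11.36 and 11.23 in bulge and 7.49, 7.44 and 7.03 in IFE (log2 difference 4.01, SE 0.25, adjusted p = 2.42e-06). Both groups were above the reference level and far apart. Fzd7 (3.10), Fzd3 (2.96), Fzd1 (2.09) and the R-spondin receptor Lgr4 (2.12) also had log2 differences above 2. Fzd10 (-1.05) and Lrp4 (-1.58) were lower, and the co-receptors Lrp6 and Lrp5 had log2 differences of 0.76 and 0.01, the second not called.

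Inhibitors were called higher for 6 of 23 members and lower for 4; 11 were dim in both compartments, and the median log2 difference was -0.02 while the mean was 0.56. Shisa2, which retains Wnt and FGF receptors in the cell, read 11.33, 10.99 and 10.95 in bulge and 5.22, 5.30 and 5.30 in IFE. The secreted inhibitors Dkk3 (3.85), Wif1 (3.76) and Sfrp1 (3.19), also counted above among the niche genes, had positive log2 differences. Apcdd1, a membrane inhibitor that is itself induced by Wnt signals, was lower and read 6.07, 5.17 and 6.07 in bulge and 9.45, 8.79 and 8.44 in IFE (log2 difference -3.12, SE 0.47). The ubiquitin ligases Znrf3 (-0.81) and Rnf43 (-0.69), which remove frizzled receptors, were also lower. Axin2, a common reporter of the pathway, had a log2 difference of -0.37 and was not called. It was called lower without IFE WT replicate 3 (-0.59) and with the probe set of largest interquartile range (-0.85). The same held with the mean of its probe sets (-0.61) and with array weights estimated either way (-0.57 and -0.55). Beta-catenin (Ctnnb1) differed by 0.32. Of 15 effectors and targets, 7 were called higher and 4 lower, the latter count being 2 without bulge WT replicate 3; Tle2 (1.0) and Tle1 (0.92) were higher and Tle3 (-1.12) and Myc (-0.64) lower.

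In the BMP, TGF-beta and activin pathway, 24 of 54 genes were called higher in bulge cells and 11 lower. Of 17 antagonists and carriers, 11 were called higher in bulge cells, 9 of them at least 2-fold, and 1 lower, with a median log2 difference of 1.01. Grem1, a secreted BMP antagonist, read 10.68, 10.63 and 10.64 in bulge and 5.26, 5.30 and 5.65 in IFE. Ltbp2 read 9.82, 9.63 and 9.28 in bulge and 5.18, 5.32 and 5.06 in IFE, and Fstl1 read 9.21, 9.0 and 8.96 and 4.94, 5.25 and 4.77. The IFE arrays were dim for all 3 genes, and no array of one compartment reached those of the other. The carriers Ltbp3 (2.18) and Ltbp4 (1.01) and the antagonists Nog (1.98), Nbl1 (1.87) and Fst (1.43) had positive log2 differences; Ltbp1 differed by 1.76, whereas its other probe sets were dim and differed by -0.18 and 0.00. Twsg1 was the member called lower (log2 difference -0.36).

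Ligands of this pathway were split, with 3 of 14 called higher and 5 lower. Bmp4 read 5.40, 5.29 and 5.15 in bulge and 7.87, 7.58 and 8.08 in IFE (log2 difference -2.56, SE 0.30, adjusted p = 6.06e-05), and Bmp2 had a log2 difference of -1.45. Gdf10 (2.18), Bmp6 (1.03), a BMP of the quiescent niche, and Tgfb3 (0.81) were higher in bulge cells, and Tgfb1 (-0.79) lower. Of 12 effectors and targets, 7 were called higher and 2 lower. Id2 read 10.17, 10.04 and 10.21 in bulge and 6.99, 7.25 and 6.76 in IFE, and its groups did not overlap. The other inhibitor of DNA binding genes Id4 and Id3, direct targets of BMP signals, had log2 differences of 1.93 and 1.50. The BMP-activated Smad9 differed by 2.05, the TGF-beta-activated Smad3 by -1.0, and Ccn2, a matricellular target of TGF-beta and YAP, by 3.12 on the log2 scale. Among 11 receptors, 3 were called in each direction, with Tgfbr3 at -1.59 and Tgfbr2 at -0.95.

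Hedgehog pathway genes were called higher in bulge cells for 11 of 16 members, 6 of them at least 2-fold, and none was called lower, with 5 dim in both compartments. The median log2 difference was 0.43. The transcription factor Gli2 read 9.69, 9.43 and 9.08 in bulge and 6.48, 6.14 and 6.60 in IFE (log2 difference 2.99, SE 0.26, adjusted p = 1.29e-05). The target gene and receptor Ptch1 read 8.64, 8.31 and 8.21 and 6.81, 7.02 and 6.64, and a second probe set for it differed by 0.36. The co-receptors Gas1 (2.11), Cdon (1.87) and Boc (1.86, with a dim second probe set at -0.02) had like log2 differences, as did Gli1 (1.49), while Gli3 differed by 0.67. The ligand Shh had a log2 difference of -0.03 and the transducer Smo of 0.07, and neither was called. With the filter on dim probe sets, 7 members were called higher.

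**Figure D3:**
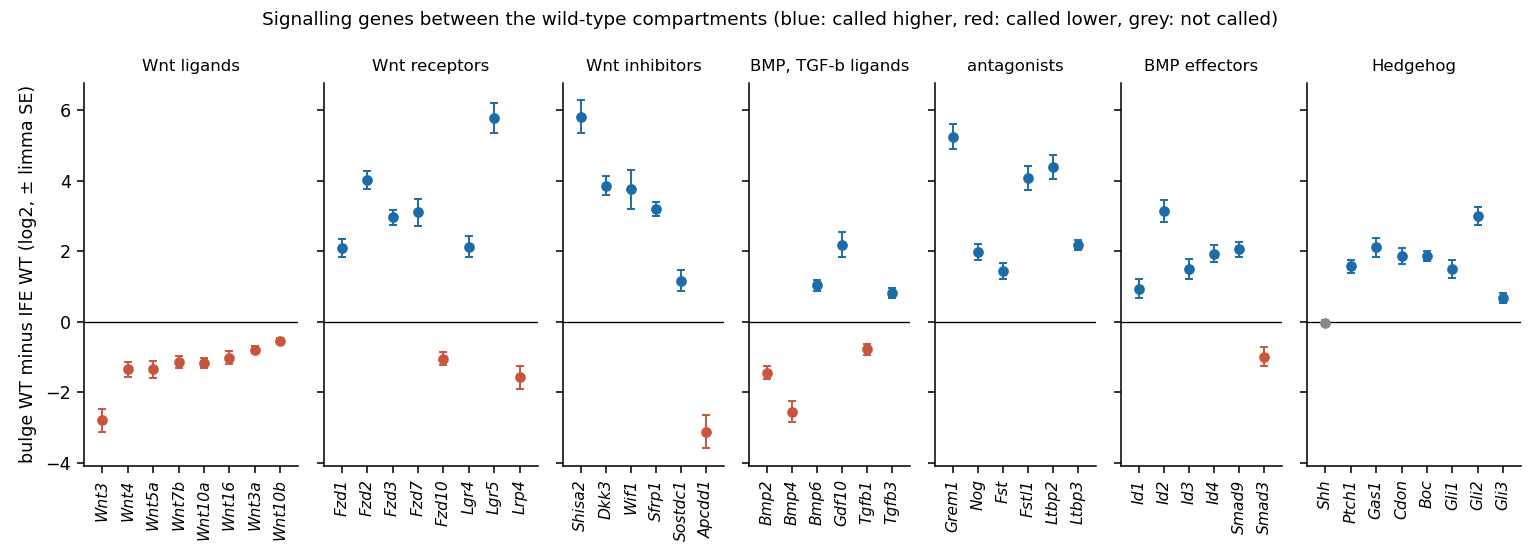
Log2 differences between bulge WT and IFE WT (y axis) with limma standard errors for selected members of the Wnt, BMP and TGF-beta, and Hedgehog pathways (x axis), 3 arrays per group; blue points were called higher in bulge, red points called lower and the grey point not called. The Wnt ligands shown lie below 0 and most of the receptors, inhibitors and antagonists shown above it, with Apcdd1, Fzd10 and Lrp4 among the exceptions. Except for the grey point all genes shown were called. In the full lists 11 of 21 Wnt ligands and secretion genes and 13 of 23 Wnt inhibitors were not.

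Of 32 FGF pathway genes, 9 were called higher in bulge cells and 5 lower, with a median log2 difference of -0.01 and a mean of 0.31. The ligands Fgf18, which holds follicles in telogen, and Fgf1 had log2 differences of 3.13 and 2.88, and the receptor Fgfr1 read 11.61, 11.47 and 11.62 in bulge and 9.06, 8.41 and 8.90 in IFE (log2 difference 2.78). The carrier Fgfbp1 was lower and read 7.51, 7.38 and 6.82 in bulge and 10.0, 9.45 and 10.09 in IFE. The feedback gene Etv4 differed by 1.61 and Spred1 by 1.08 on the log2 scale. Without bulge WT replicate 1, or with the filter on dim probe sets, 3 members were called lower instead of 5.

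Genes of the EGF receptor family were called lower in bulge cells for 7 of 16 members and higher for 2 (1 without IFE WT replicate 1), and 5 were at least 2-fold lower. Besides Epgn, the ligands Hbegf (-1.77) and Tgfa (-1.24), the receptor Erbb3 (-1.28) and the feedback inhibitor Errfi1 (-1.77) had negative log2 differences. Lrig3, a transmembrane regulator of growth factor receptors, was higher (log2 difference 0.96). In the GDNF family the co-receptor Gfra1 read 11.22, 11.13 and 11.30 in bulge and 6.09, 5.23 and 5.89 in IFE, and Gfra2 read 9.61, 9.60 and 9.48 and 5.87, 5.65 and 5.82, with its other probe sets at log2 differences of 2.51 and 0.68. Both were dim on every IFE array and above the reference level on every bulge array. Their shared signalling receptor Ret differed by 0.93, whereas the ligand Gdnf, dim in both compartments, differed by -0.85; 4 of the 13 measured genes of this list were called higher and 2 lower. With the filter on dim probe sets these counts were 2 and 1, and the count lower was also 1 without bulge WT replicate 2 or 3 and without IFE WT replicate 1 or 2. Among 9 genes of the IGF pathway, the binding proteins Igfbp4 (2.06) and Igfbp6 (1.83) were higher and Igfbp3 (-2.65) lower on the log2 scale, while Igf1r differed by 0.16 and was not called.

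Of 23 measured Notch genes, 6 were called higher in bulge cells and 5 lower, with a median log2 difference of -0.07. The ligand Dll1 read 6.96, 7.49 and 6.95 in bulge and 9.03, 8.60 and 9.45 in IFE (log2 difference -1.89, SE 0.28). The receptors Notch3 (-1.40) and Notch1 (-0.62) were lower, and the glycosyltransferase Lfng, which modifies Notch receptors, was higher (1.50). The target Hes1 had a log2 difference of -0.50 and was not called; without IFE WT replicate 3 it was called at -0.79.

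Genes of axon guidance, many of which also act in epithelia, were called higher for 18 of 63 members and lower for 10, the latter a share near the 16.6% of all genes. The secreted semaphorin Sema3e read 10.26, 10.07 and 10.05 in bulge and 4.91, 5.07 and 5.03 in IFE. The Slit receptor Robo1 read 5.39, 5.36 and 5.65 in bulge and 9.41, 9.0 and 9.71 in IFE. For both genes the brighter compartment lay above the reference level on every array and the groups were several log2 units apart. Ephrins were called higher for 6 of 7 members, with Efna4 at 2.01 and Efnb2 at 1.19 on the log2 scale, and none was called lower. The ephrin receptor Epha2 differed by -1.80 and Ephb6 by 1.21. Of 20 semaphorins, 3 were called higher and 5 lower; Sema4d differed by -2.26 and Sema3d by -1.83.

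Collagens were called higher in bulge cells for 12 of 36 members and lower for 3, and 19 were dim in both compartments. Col8a2 read 10.50, 10.24 and 10.0 in bulge and 4.98, 5.35 and 4.99 in IFE. Col6a1 read 11.24, 11.20 and 11.34 and 7.68, 7.12 and 6.71, and Col6a2 read 9.30, 9.32 and 9.07 and 6.05, 6.17 and 6.02. The 3 genes were higher on every bulge array, by log2 differences of 5.14, 4.09 and 3.15. The basement membrane chains Col4a2 (2.47), Col4a1 (2.09) and Col18a1 (1.55) were higher as well, and Col23a1, a transmembrane collagen, was lower (-2.33). The fibroblast collagens Col1a1 (0.63), Col1a2 (0.09) and Col3a1 (0.18) were not called, and the last pair was dim in both compartments.

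Among 28 genes that attach basal cells to the basement membrane, 10 were called higher and 3 lower, and 3 were at least 2-fold apart. Of 6 hemidesmosome genes, 3 were called higher, or 1 without bulge WT replicate 1, and 1 was called lower. The integrin Itga6, given above among the surface genes, differed by -0.87 on the log2 scale. The hemidesmosomal Itgb4, Plec and Col17a1 had log2 differences of 0.35, 0.08 and 0.16; Plec was not called, and Itgb4 and Col17a1 lost their calls without bulge WT replicate 1, and Col17a1 also without IFE WT replicate 1 or with arrays centred on their medians. The proteoglycans Agrn (1.15) and Hspg2 (1.16, with a second probe set at 0.15) were higher, and Lama1 (-0.88) was lower. Beta 1 integrin (Itgb1) differed by -0.24 and was not called, although it was called lower with the mean of its probe sets (-0.345).

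Of 13 desmosome genes, 8 were called lower in bulge cells and none higher; the counts were 5 lower without IFE WT replicate 1, and 1 higher without IFE WT replicate 3. Dsg1a, a desmosomal cadherin of the upper layers, read 5.95, 5.28 and 5.94 in bulge and 10.20, 9.28 and 9.56 in IFE, and Dsg2 (-0.89) and Pkp1 (-0.70) had smaller log2 differences, whereas Dsp (0.13) and Perp (0.06) were not called. Dsp was called higher under cyclic loess (0.22) and without IFE WT replicate 3 (0.17). E-cadherin (Cdh1) read 8.33, 8.71 and 8.52 in bulge and 9.49, 9.43 and 9.95 in IFE (log2 difference -1.10, SE 0.19, adjusted p = 0.00066), and Nectin4 (-1.38) and Cdh4 (-1.81) were lower too. Afdn, which links nectins to actin, had a log2 difference of 2.36 on its brightest probe set and of -0.22 on another. Of 18 tight and gap junction genes, 8 were called lower and 1 higher, with Tjp1 at -1.13, Cldn1 at -0.91, Gja1 at -0.91 and Panx1 at -1.66 on the log2 scale.

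Of 34 keratins, 5 were called higher and 6 lower, shares near the 18.4% and 16.6% of all genes, and 3 lower without bulge WT replicate 2 or without IFE WT replicate 1. Under cyclic loess, or with arrays centred on their medians, 11 were called lower, and with the filter on dim probe sets 3 higher. Krt15 read 12.14, 12.17 and 12.14 in bulge and 10.95, 11.22 and 10.94 in IFE, a smaller gap than for Cd34, Lgr5 and Lhx2 but without overlap. Krt75 read 8.27, 7.39 and 7.83 and 4.99, 5.51 and 5.0. Krt16, a keratin of activated epidermis, read 9.04, 8.44 and 8.53 in bulge and 11.48, 10.96 and 10.63 in IFE (log2 difference -2.35, SE 0.37), and Krt10 differed by -1.74. Keratins of the inner root sheath and hair shaft were called higher for 3 of 13 and lower for none (2 without bulge WT replicate 3), with Krt71 at a log2 difference of 0.77.

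Epidermal differentiation genes were lower in bulge cells for 20 of 51 measured and higher for 8; 15 were at least 2-fold lower and 3 at least 2-fold higher, and the median log2 difference was -0.31. Regulators included Ovol1, which read 6.98, 7.25 and 7.63 in bulge and 10.14, 9.53 and 9.86 in IFE, Gata3 (log2 difference -1.76), the grainyhead factors Grhl1 (-1.52) and Grhl3 (-1.48), and Zfp750 (-1.10). The caspase of cornification, Casp14, read 5.62, 4.82 and 5.86 in bulge and 8.90, 8.33 and 8.38 in IFE. The transglutaminase Tgm3 (-2.03), the kallikrein Klk8 (-2.08), the small proline-rich genes Sprr1a (-2.39) and Sprr1b (-2.44) and Krtdap (-2.33) were lower, all past 4-fold. Against this direction, Tgm5 read 10.78, 10.64 and 10.66 in bulge and 6.54, 6.27 and 6.40 in IFE, and Calml3 read 10.86, 10.54 and 10.89 and 7.13, 6.48 and 6.49. The envelope genes Ivl (-0.48) and Flg (0.02, dim in both compartments) were not called. The keratinocyte lineage factor Trp63 was higher (log2 difference 0.35), and Klf4, a factor of the barrier, had a log2 difference of 0.11 and was not called, except without bulge WT replicate 1 (0.31).

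Genes of the lipid barrier were lower in bulge cells for 13 of 21 measured, 10 of them at least 2-fold, and higher for 1, with a median log2 difference of -1.0. Acer1, an alkaline ceramidase, read 6.04, 5.21 and 5.44 in bulge and 9.73, 8.84 and 8.82 in IFE. Abca12, the transporter that loads lamellar granules, read 4.24, 4.27 and 4.92 and 7.84, 7.38 and 7.66. Elovl4, which elongates the very long fatty acids of ceramides, read 7.71, 6.73 and 6.92 and 10.62, 9.76 and 9.88. For each of these 3 genes the IFE arrays lay above all bulge arrays. The lipase Lipm (-2.46), the ceramide synthase Cers3 (-2.42), the fatty acid hydroxylase Cyp4f39 (-1.73) and the lipase activator Abhd5 (-1.61) had log2 differences in the same direction, while the lipoxygenases Alox12b (-0.58) and Aloxe3 (-0.23) were not called. The acid sphingomyelinase Smpd1 was the member called higher (log2 difference 0.45). Cholesterol synthesis was lower for 7 of 14 genes and higher for none, with Cyp51 at -1.45 and Insig1 at -0.87.

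**Figure D4:**
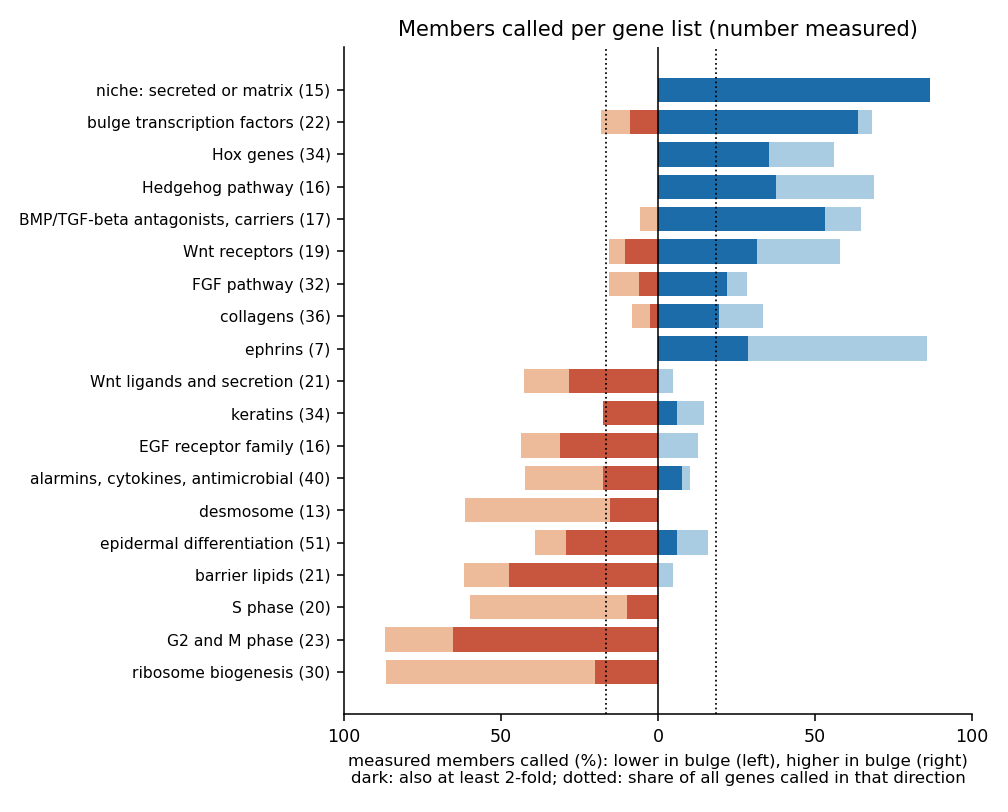
Share of measured members of 19 gene lists or roles (y axis, number measured in brackets) called higher (right) or lower (left) in bulge WT than in IFE WT (x axis, percent); dark bars are members that were also at least 2-fold apart and dotted lines mark the 18.4% and 16.6% of all genes called in each direction. The niche genes, transcription factors, Hox, Hedgehog and antagonist lists extend to the right of the dotted line, and the barrier lipid, G2 and M phase and ribosome biogenesis lists to the left. The lists were chosen with earlier results of these data known.

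Alarmins, cytokines and antimicrobial genes were called lower in bulge cells for 17 of 40 members and higher for 4, with 21 dim in both compartments; 7 were at least 2-fold lower, and 4 without IFE WT replicate 1. With the filter on dim probe sets 7 were called lower. The interleukin 36 family member Il1f9 read 5.99, 5.38 and 5.37 in bulge and 9.55, 8.78 and 8.50 in IFE, and Il24 had a log2 difference of -1.18 and Il34, a ligand of the CSF1 receptor, of -0.85. The beta-defensin Defb1 differed by -2.17. On the bulge side were Il31ra and the chemokines Cxcl12 (2.25) and Cxcl14 (1.84). Cxcl14 read 12.41, 12.25 and 12.23 in bulge and 10.31, 10.64 and 10.42 in IFE, bright in both. The class I antigen presentation list was lower for all 7 measured genes over the 6 arrays, led by Nlrc5, the transactivator of class I genes (-1.96), and the immunoproteasome subunit Psmb8 (-1.47, second probe set -0.18); 6 of 14 genes of the class I and class II lists together were called lower without IFE WT replicate 3, against 10 with all arrays.

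Clca genes, which encode regulators of chloride channels, and serpins held genes at both ends of the comparison. Of 6 Clca genes, 4 were called lower in bulge cells, all at least 2-fold, and none higher. Clca3a2 read 5.78, 5.81 and 6.77 in bulge and 10.63, 10.19 and 10.46 in IFE. Clca2 read 4.86, 4.30 and 4.75 and 8.86, 8.49 and 8.56, and Clca3a1 had a log2 difference of -2.91; members of this family are close copies, so a value for 1 of them is uncertain. Among 16 serpins, 6 were called higher and 4 lower. Serpinb2, also called plasminogen activator inhibitor 2, read 6.48, 6.95 and 7.99 in bulge and 11.48, 10.91 and 11.57 in IFE, and Serpinb7 read 4.90, 4.49 and 4.70 and 8.62, 7.83 and 8.37. Serpinb11, of the same gene cluster, went the other way and read 9.57, 9.35 and 9.17 in bulge and 5.12, 5.23 and 5.63 in IFE. The collagen chaperone Serpinh1 was higher too (log2 difference 1.55).

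The promoters of these neighbours are shown because genes of 1 cluster on chromosome 1 moved in opposite directions; Clca3a2 and Sprr1a, from chromosome 3, are added from the IFE side. All 5 were picked among promoters that hold the motif below. Each line gives the 200 bases before the listed transcript start on the gene's strand, 5′ to 3′, from RefSeq (GRCm38.p6). Capitals mark TGANTCA, the AP-1 motif with any base allowed in the middle, a pattern that is the same on both strands. The middle base is G in Serpinb7 and Sprr1a. It is A or T in Serpinb2, Serpinb11 and Clca3a2, which a stricter motif with C or G there would leave out. Counts and shares below are of the looser pattern.
Serpinb2 (chr1:107511223-107511422, + strand): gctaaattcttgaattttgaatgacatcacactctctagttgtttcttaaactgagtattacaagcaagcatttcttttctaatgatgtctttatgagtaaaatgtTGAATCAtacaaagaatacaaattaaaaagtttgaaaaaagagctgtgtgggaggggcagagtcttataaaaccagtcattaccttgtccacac
Serpinb7 (chr1:107422489-107422688, + strand): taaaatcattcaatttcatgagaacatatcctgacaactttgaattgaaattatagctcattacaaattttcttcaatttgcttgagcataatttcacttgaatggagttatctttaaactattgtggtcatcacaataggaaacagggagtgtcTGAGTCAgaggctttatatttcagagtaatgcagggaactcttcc
Serpinb11 (chr1:107362114-107362313, + strand): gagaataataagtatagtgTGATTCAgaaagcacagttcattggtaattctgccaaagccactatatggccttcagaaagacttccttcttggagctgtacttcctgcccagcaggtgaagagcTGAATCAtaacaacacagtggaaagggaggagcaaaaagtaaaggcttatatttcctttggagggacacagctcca
Clca3a2 (chr3:144819495-144819694, - strand): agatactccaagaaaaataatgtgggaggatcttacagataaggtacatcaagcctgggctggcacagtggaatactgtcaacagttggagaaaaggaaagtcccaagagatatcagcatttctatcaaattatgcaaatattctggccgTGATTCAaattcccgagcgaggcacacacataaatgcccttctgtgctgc
Sprr1a (chr3:92485882-92486081, - strand): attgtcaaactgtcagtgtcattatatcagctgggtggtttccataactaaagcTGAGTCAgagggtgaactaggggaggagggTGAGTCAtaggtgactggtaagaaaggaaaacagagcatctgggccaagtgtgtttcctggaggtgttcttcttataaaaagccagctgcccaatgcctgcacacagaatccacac
The motif starts at base -94 before the start in Serpinb2, at -45 in Serpinb7, at -181 and -76 in Serpinb11, at -50 in Clca3a2 and at -146 and -116 in Sprr1a. Among the 25 top-ranked genes of each direction, the motif was in 4 of the 21 on the IFE side and 4 of the 19 on the bulge side that have a listed promoter. These counts are of genes with a match in any of their promoters. The shares that follow are of single promoters, so the counts cannot be set against them. Of the 250 bases before each listed start, the motif was found in 7.54% of 690 promoters of genes at least 2-fold lower in bulge cells, in 4.13% of 702 promoters of genes at least 2-fold higher, and in 5.73% of 17065 promoters of 13605 measured genes that the table holds. The TATA box core TATAAA, read on the gene's strand, was in 7.68%, 3.56% and 5.75% of the same promoters, and the TCF and LEF core ATCAAAG, on either strand, in 2.03%, 3.70% and 2.70%. A match describes the sequence and shows no binding. Promoters of Lgr5, Krt1, Nrep, Plpp1, Camk4, Calml3, Col5a2, Dsg1a, Tcim, Pmaip1 and Thy1 were not used here.

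Of 19 immediate early genes, many of which encode AP-1 and other quickly induced factors, 8 were called lower in bulge cells and none higher, and 5 lower in a fit of the 6 WT arrays alone. The AP-1 subunit Fosl1 read 8.22, 8.98 and 9.41 in bulge and 10.99, 10.84 and 11.21 in IFE (log2 difference -2.14, SE 0.27, adjusted p = 9.4e-05), and Egr2 (-1.38), Klf2 (-1.02) and Klf6 (-0.82) followed. Fos (0.16), Jun (-0.01), Junb (-0.52) and Egr1 (0.14) were not called, and Junb was called lower without bulge WT replicate 3 (-0.76). The mean of the 19 genes was 9.22 on bulge WT replicate 1 and 9.75 and 9.88 on the other bulge arrays, against 9.93 to 10.13 on the IFE arrays, and without bulge WT replicate 1 the list had 3 genes called higher, Fos among them.

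Cell division genes were lower in bulge cells. Of 23 genes of G2 and M phase, 20 were called lower, 15 of them at least 2-fold, and none higher, with a median log2 difference of -1.11. Of 20 S phase genes 12 were called lower and none higher. The mean signal of the G2 and M phase genes was 6.50, 6.54 and 6.92 on the bulge arrays and 7.98, 7.99 and 7.08 on the IFE arrays, so IFE WT replicate 3 lay close to the bulge arrays. Mki67, the proliferation marker, read 7.40, 7.54 and 8.09 in bulge and 9.43, 9.51 and 8.46 in IFE, and Cdc20, the activator of the anaphase-promoting complex, read 7.46, 7.69 and 8.03 and 9.69, 9.54 and 8.90. Both had their lowest IFE value on replicate 3. The count of G2 and M phase genes called lower was 12 without IFE WT replicate 1 or without IFE WT replicate 2, 13 without bulge WT replicate 1 or 2, 20 without bulge WT replicate 3 and 22 without IFE WT replicate 3. The count at least 2-fold lower was 8 without IFE WT replicate 1 or 2. Among cell cycle inhibitors Gas1 (2.11) and Cdkn1b, which encodes p27 (1.03), were higher and Cdkn1a, which encodes p21 (-1.26), was lower on the log2 scale; 4 of 14 were called higher and 7 lower, and 2 to 5 lower when any WT array was left out.

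Ribosome biogenesis was lower in bulge cells for 26 of 30 genes and higher for none, mostly by less than 2-fold, with a median log2 difference of -0.54. The mean of these genes was 7.82 to 8.02 on the bulge arrays and 8.46 to 8.59 on the IFE arrays, with no overlap. Nop2 (-0.46), Bysl (-1.04), Ddx21 (-1.09) and Noc4l (-1.13) were among them, and Npm1 (0.01) was not called. Of 17 clock genes, 4 were called higher and 5 lower: Bhlhe40 differed by -2.64, Cry1 by -1.57 and Arntl by -0.83, against Tef at 1.19 and Cry2 at 1.03. Retinoid carriers and enzymes were called higher for 4 of 18 and lower for 7, the first count being 2 without bulge WT replicate 2 or without any one IFE WT array. Crabp1 (1.91) and the retinal reductase Dhrs3 (1.14) were higher and Fabp5 (-2.52) lower, and none of 5 retinoid receptors was called.

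Hox genes, the positional homeobox factors, were called higher in bulge cells for 19 of 34 members, 12 of them at least 2-fold, and none was called lower; 16 were dim in both compartments. Without bulge WT replicate 3 a single member was called lower, and 2 were under cyclic loess or median centring. Hoxb6 read 7.08, 7.39 and 7.39 in bulge and 3.97, 4.58 and 4.0 in IFE (log2 difference 3.10, SE 0.38, adjusted p = 8.5e-05), and Hoxc8 read 8.98, 9.56 and 9.25 and 6.13, 6.89 and 6.10. Both were higher on every bulge array. In the B cluster 8 of 10 genes were called higher, from Hoxb2 (0.90) to Hoxb9 (0.96), with the largest log2 differences at Hoxb5 (2.46), Hoxb6, Hoxb7 (2.10) and Hoxb8 (2.03). In the D cluster 2 of 9 were called, Hoxd8 (2.03) and Hoxd9 (2.07), and the other 7 were dim in both compartments. Hoxc13, known from the hair shaft, differed by 1.77. The count in the C cluster was 4 of 6, and 2 without bulge WT replicate 3 or without IFE WT replicate 1 or 2.

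**Figure D5:**
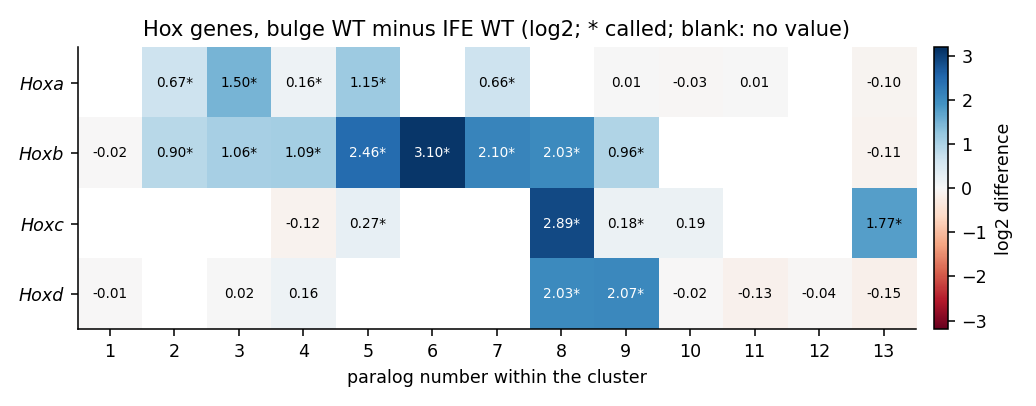
Log2 differences between bulge WT and IFE WT for Hox genes, by cluster (rows) and paralog number (columns), from means of 3 arrays each; asterisks mark called genes and empty cells have no value here. The positive values gather at paralogs 2 to 9, with Hoxb6 at 3.10 and Hoxc8 at 2.89, and Hoxc13 stands apart at 1.77.

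The targeted gene of the study was not called between the wild-type compartments. Ehmt2 read 8.04, 7.92 and 7.84 in bulge and 8.05, 7.84 and 7.84 in IFE (log2 difference 0.02, adjusted p = 0.836), and Ehmt1, its partner methyltransferase, differed by 0.15 (adjusted p = 0.324). Of 14 measured genes of H3K9 methylation, 3 were called lower and none higher, and none was 2-fold apart. Without IFE WT replicate 1 there was 1 called higher. The demethylase Kdm3a had a log2 difference of -0.73.

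The same comparison was made in the 8 G9a cKO arrays, which share no array with the wild-type comparison, and 5496 genes were called there (32.1%). Of the 664 genes at least 2-fold higher in wild-type bulge cells, 663 had the same sign and 615 were called in the same direction in the cKO arrays. Of the 677 at least 2-fold lower, all 677 had the same sign and 609 were called. The sizes were smaller: the median log2 difference of the first set was 1.47 in WT and 0.95 in cKO, and of the second -1.44 and -0.97. The sets were chosen by their size in the WT arrays, so their WT medians are no independent estimate of that size. Bulge cKO replicates 2 and 3 also carried less of the bulge marker Cd34, at 9.84 and 9.95 against 10.55 and 11.18 on the other bulge cKO arrays, and IFE cKO replicates 2 and 3 carried more of it, with 6.65 and 6.53 against 5.10 and 5.16. Krt1, lower in bulge cells in WT, read 9.36 on bulge cKO replicate 1 and 11.93, 11.75 and 11.31 on replicates 2, 3 and 4. For Acer1 the values were 5.35 on replicate 1 and 9.49, 9.05 and 8.28 on replicates 2, 3 and 4. Replicate 4 was thus nearer to replicates 2 and 3 for Krt1 and Acer1, though not for Cd34. The part of these arrays in the smaller cKO differences was not tested. At least 2-fold in both genotypes and in the same direction were 298 genes higher, which is 44.9% of the WT genes and 95.8% of the cKO genes, and 302 genes lower, which is 44.6% and 98.4%.

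The difference of the compartment differences was called for 18 genes (0.105%), and 2404 genes had an unadjusted p under 0.05 (14.1%). Slc38a4, an amino acid transporter, read 8.26, 7.37 and 7.48 in bulge WT and 5.55, 4.93 and 5.56 in IFE WT, a log2 difference of 2.36 against 0.30 in cKO (difference 2.06, SE 0.28, adjusted p = 0.0228). Serpina3n, a secreted serpin, read 8.31, 7.71 and 7.31 and 5.26, 5.12 and 5.32, with log2 differences of 2.55 in WT and 0.60 in cKO. Mme, the membrane metalloprotease neprilysin, read 7.83, 7.63 and 7.92 and 5.86, 5.70 and 5.64, with log2 differences of 2.06 in WT and 0.78 in cKO. For these 3 genes the wild-type groups did not overlap. Their cKO signals moved in unlike directions. Slc38a4 read 9.699 to 9.939 in bulge cKO and 9.376 to 9.687 in IFE cKO, above all its WT arrays in both compartments. Serpina3n read 5.294 to 5.903 and Mme 6.085 to 6.671 in bulge cKO, below their bulge WT arrays. Tslp, an epithelial cytokine dim in both compartments, had a log2 difference of -0.77 in WT and 0.01 in cKO, and Phka1, a phosphorylase kinase subunit, had 0.94 and 0.15. The number called was 10, 11 and 8 without bulge WT replicate 1, 2 or 3, and 4, 4 and 11 without IFE WT replicate 1, 2 or 3. It was 3 without bulge cKO replicate 2, bulge cKO replicate 3 or IFE cKO replicate 3, 7 without IFE cKO replicate 1 and 240 without bulge cKO replicate 4. It was 6 with the filter on dim probe sets, and 4974 or 2520 with array weights estimated over all genes or gene by gene, so the count of 18 did not hold.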

How the data were processed

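Gene expression was measured on 14 Affymetrix arrays of mouse epidermal cells. Values are log2 signals that the authors deposited for 45141 probe sets, made with RMA per the submitters' processing notes; the number of arrays limits their precision. Probe sets were named from RefSeq or the platform annotation. Of them, 28898 had 1 symbol, 551 several and 15692 none. The probe set with the highest mean stood for each of 17097 genes.

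Group means were fitted to all 14 arrays by lmFit and eBayes of limma (version 3.58.1, R 4.3.3; two-sided, no filter on dim probe sets), and p-values were adjusted over all genes with the Benjamini-Hochberg method. The procedure was tested on simulated data with independent errors and an equal spread in all groups. Such data cannot show mixed arrays or effects shared by replicates. Alternatives covered scaling, a filter on dim probe sets, the choice of probe set, array weights, the samples in the fit, the threshold, a replicate block and leaving out each array. Promoters came from RefSeq (GRCm38.p6).

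The members and lists were chosen with earlier results of these data known. Genes named are the 6 markers, those ranked 11 to 25 by log2 difference in each direction among called genes without overlap, list members with the smallest p-values or defining a family, and the genes with the smallest p in the difference between genotypes. Some further list members were chosen after their values were seen.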

Additional observations from a re-analysis of the deposited data

Results flagged for a closer look

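The bulge minus IFE difference itself differed between the WT and the cKO arrays for 16 named genes, by limma's contrast of the 2 differences with an adjusted p under 0.05 over 17097 genes; 2 further genes without a proper name were also called. Values are the log2 difference in WT minus that in cKO. They were positive for 13 genes, meaning a larger excess in bulge cells in WT: Slc38a4 at 2.06 (SE 0.28), Serpina3n at 1.95, Mme at 1.28, Tmem176b at 0.91, Hoxa5 at 0.81, Sorcs3 at 0.79, Phka1 at 0.79 (SE 0.06), Vangl2 at 0.63, Tenm3 at 0.60, Lpcat4 at 0.53, Stbd1 at 0.47, Ddit4l at 0.42 and Arhgef12 at 0.35. For Tenm3 the log2 difference was 0.64 in WT and 0.04 in cKO, and for Hoxa5 1.15 and 0.35. A positive value does not say in which compartment the genotypes differed. Tmem176b read 9.14 to 9.28 in IFE WT and 9.91 to 10.01 in IFE cKO. Its bulge arrays read 10.29 to 10.48 in WT and 10.08 to 10.41 in cKO.

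The remaining 3 values were negative. Tslp had -0.79. Dusp26 had -0.47, from a log2 difference of 0.05 in WT and 0.53 in cKO, and Slc41a3 had -0.44, from -0.15 and 0.30. The probe sets of Tslp, Dusp26, Tenm3 and Stbd1 were dim in both WT groups. How many genes were called depended on single arrays and on other choices, as given among the processing alternatives, under several of which the number did not hold, and the part of the cKO arrays with lower Cd34 in these differences was not tested.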

How the results depend on the processing

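The counts of genes called, called at least 2-fold and called at least 2-fold among list members, in both directions, stayed within 1.5 times of the reported counts under every alternative run; the 2-fold count lay between 1183 and 1594. Single lists were less stable: of 156 list counts, 26 moved by over 1.5 times at an adjusted p under 0.01, 16 with the filter on dim probe sets and 12 to 25 without any one WT array. Of 313 named genes none changed sign with a call on either side, and calls were lost for 8 genes under an adjusted p of 0.01, for 1 under median centring and for 3 to 5 without any one WT array. The number of genes whose compartment difference differed between WT and cKO, reported as 18, did not hold. It was 6 with the filter on dim probe sets, which tests fewer genes, 3 at an adjusted p under 0.01, 4974 with array weights (an estimate that stopped before it converged), 2520 with array weights estimated gene by gene (chosen after seeing the data), 3 without bulge cKO replicates 2 and 3, and 3 to 240 with single arrays left out. Apart from the filter, the threshold and the number of samples, the cause was not tested. With the replicate number as a block, limma called 0, against 2446 genes at an unadjusted p under 0.05. Same-numbered WT arrays had deviations correlated at 0.251, 0.0359 and 0.144, and arrays of unlike number at -0.254 to 0.136. The numbers were not taken to pair samples. With 3 WT arrays a group this check cannot exclude pairing, and the cKO arrays were not checked. The block gave 1334 genes at least 2-fold apart. With it Alox12b (adjusted p = 0.010), Ivl (0.0061) and Col1a1 (0.018) were called in limma's fit, while Kif17, Mlana and Slc41a3 were not. The file holds signals without detection calls, which limits what can be said of genes near the receptor reference level.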

Other observations

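Some gene families outside the lists above were looked up after values of some members had been seen, so their counts are descriptions and support nothing. Genes of primary cilium transport and the BBSome, which carry Hedgehog components among other cargo, were called higher in bulge cells for 28 of 35 measured members and lower for 1, with a median log2 difference of 0.58 and 8 members at least 2-fold higher. Dync2li1 read 8.04, 7.58 and 7.61 in bulge and 5.89, 6.10 and 5.71 in IFE, and Ift122 (1.73), Ift57 (1.71), Ift80 (1.66), Arl3 (1.44), Ift172 (1.14) and Tulp3 (1.11) had positive log2 differences. The kinesin Kif17 was the member called lower (-0.28), a call lost under cyclic loess and when replicate 2 or replicate 3 of either WT group was left out.

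The NF-kappaB family ran in the other direction, with 12 of 16 measured members called lower in bulge cells and none higher, 7 of them at least 2-fold, and a median log2 difference of -0.79. Tnfaip3, the A20 inhibitor of the pathway, read 7.74, 7.70 and 8.25 in bulge and 10.90, 10.63 and 11.20 in IFE, and the subunits Rel (-2.0) and Rela (-1.18), the nuclear regulators Nfkbiz (-1.33) and Bcl3 (-1.09) and the adaptor Myd88 (-1.24) were lower. Prostaglandin synthesis and receptor genes were called lower for 9 of 21 and higher for 3 (none without bulge WT replicate 1 and 1 without IFE WT replicate 3), with Ptgs2, the inducible cyclooxygenase, at -2.29 and the receptor Ptger4 at -2.74. Among 20 matrix metalloproteases and their inhibitors 6 were called in each direction: Mmp11 (2.04) and Mmp2 (1.22) were higher, and Mmp3 (-2.70), Mmp13 (-2.57), Mmp9 (-1.75) and Mmp10 (-1.74) were lower.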
